A study of Mus musculus with 8 samples.

Results

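The 4 gap junction genes of the heart and its vessels, *Gja1*, *Gja4*, *Gja5* and *Gjc1*, were examined in RNA-seq of whole mouse hearts at embryonic day 9.5. They were taken by name, with earlier results of these data known. Each symbol was matched to its Ensembl gene among the 49315 genes in the count tables. The 8 libraries came from 4 wild-type (WT) and 4 homozygous Tbx20EH1Mut samples, and per the study's methods each held 3 pooled hearts of 1 genotype. Tbx20EH1Mut is a germline knock-in, made by genome editing and bred from 1 founder, that replaces 2 residues in the EH1 domain of the transcription factor TBX20, so every cell of the embryo carries it. The line was back-crossed to C57BL/6J mice, and the labels give neither the sex nor the litter of the embryos. Between 33359322 and 49523086 reads were counted on genes per WT library and between 36250675 and 38357025 per Tbx20EH1Mut library.

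Gap junctions are clusters of channels that join the cytoplasm of neighbouring cells, and each channel is built from hexamers of connexin proteins contributed by both cells. In the heart they carry current from one myocyte to the next, and the connexin in use helps set how fast an impulse travels. *Gjc1* encodes Cx45, the connexin of the early heart tube and later of the slow nodal tissues. *Gja5* encodes Cx40, a connexin of atrial and trabecular myocardium, the fast conduction system and arterial endothelium. *Gja1* encodes Cx43, the main connexin of working ventricular myocardium, and *Gja4* encodes Cx37, which in the vessel wall and endocardium is made mostly by endothelial cells.

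All 4 genes passed the filter on low counts, and 2 of them changed between the genotypes, in opposite directions. *Gja5* was 3.28-fold lower and *Gja4* was 2.15-fold higher in Tbx20EH1Mut hearts, while *Gja1* and *Gjc1* did not pass the test. Genes were called where the quasi-likelihood test of edgeR, with Benjamini-Hochberg adjustment over 17163 genes, gave an adjusted p not above 0.05. That threshold was met by 29.3% of all genes tested, 14.0% higher and 15.3% lower in Tbx20EH1Mut hearts. Every count of called genes given below is to be read beside these shares. In *Gja5* and *Gja4* the genotypes also did not overlap, as in 30.5% of all genes tested (14.7% with every mutant library above and 15.7% with every mutant library below WT). The median log2 fold change was -0.09 over the 4 connexin genes and 0.0048 over all genes tested. With so many genes differing between the genotypes, the 2 calls among 4 genes describe these genes and nothing about connexins as a group.

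*Gja5* (ENSMUSG00000057123) lies on the plus strand of chromosome 3 from 96904693 to 97077416 of GRCm38. Its level was 70.9, 42.1, 47.0 and 73.5 CPM (counts relative to library size, scaled by TMM) in WT replicates 1 to 4. The Tbx20EH1Mut libraries held 16.1, 11.8, 24.5 and 18.8 CPM. Every mutant library was below every WT library, and replicates 2 and 3 of WT were lower than replicates 1 and 4. The means were 58.4 ± 16.1 and 17.8 ± 5.32 CPM (SD, n = 4 each), on counts of 2066 to 3368 per WT library and 443 to 783 per mutant library. For *Gja5* the log2 fold change came to -1.72 (standard error 0.251; 95% interval -2.27 to -1.16, with adjusted p = 0.00135 in edgeR). A larger absolute log2 fold change was found for 4.82% of the genes tested. When the mean log2 level of 8 foregut epithelium markers entered the edgeR fit as a covariate, *Gja5* was at -1.07 on the log2 scale (adjusted p = 0.0281). These markers were themselves higher in Tbx20EH1Mut libraries, with a median log2 fold change of 2.45. The covariate thus largely goes with genotype, and the shift it brings is no measure of a foregut part. In bulk tissue, fewer cells of a type and less RNA per cell cannot be told apart, which holds for each level given here.

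*Gja4* (ENSMUSG00000050234) lies on the minus strand of chromosome 4 from 127311421 to 127314039. Its level was 43.1, 26.9, 33.6 and 37.1 CPM in the WT replicates in order, against 64.6, 74.8, 80.5 and 82.4 CPM in the Tbx20EH1Mut replicates. All 4 mutant libraries were above the highest WT library. The means were 35.2 ± 6.75 and 75.6 ± 7.99 CPM (SD, n = 4 each), on counts of 1322 to 1702 and 2495 to 3109 per library. The log2 fold change of *Gja4* was 1.10 (standard error 0.151, 95% interval 0.77 to 1.44, with adjusted p = 9.86e-04 in edgeR). A larger absolute log2 fold change was found for 13.9% of the genes tested.

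*Gja1* (ENSMUSG00000050953) lies on the plus strand of chromosome 10 from 56377300 to 56390419. It was measured at 92.0, 84.6, 73.3 and 100.3 CPM in WT and at 90.3, 97.9, 70.5 and 73.6 CPM in Tbx20EH1Mut libraries. The genotypes overlapped, and the lowest library of each genotype was its replicate 3. The log2 fold change of *Gja1* was -0.08 (standard error 0.142, with adjusted p = 0.715 in edgeR). Its 95% interval, a Tbx20EH1Mut level of 0.763 to 1.18 times that of WT, leaves room for changes of that size.

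*Gjc1* (ENSMUSG00000034520) lies on the minus strand of chromosome 11 from 102799579 to 102819700. WT libraries held 65.3, 83.4, 77.9 and 78.0 CPM of *Gjc1*, and Tbx20EH1Mut libraries held 67.1, 78.1, 69.9 and 69.3 CPM. The ranges overlapped, with the lowest value of all in WT replicate 1. The log2 fold change of *Gjc1* was -0.10 (standard error 0.108, with adjusted p = 0.505 in edgeR), and its interval ran from 0.791 to 1.10 times the WT level. *Gjc1* also varied least among replicates, with a coefficient of variation of 10.1% in WT and 6.77% in Tbx20EH1Mut libraries. The corresponding values for *Gja5* were 27.6% and 29.9%, against 1.61% to 3.96% due to counting alone over the 4 genes, so counting error was a small part of the spread.

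**Figure D1:**
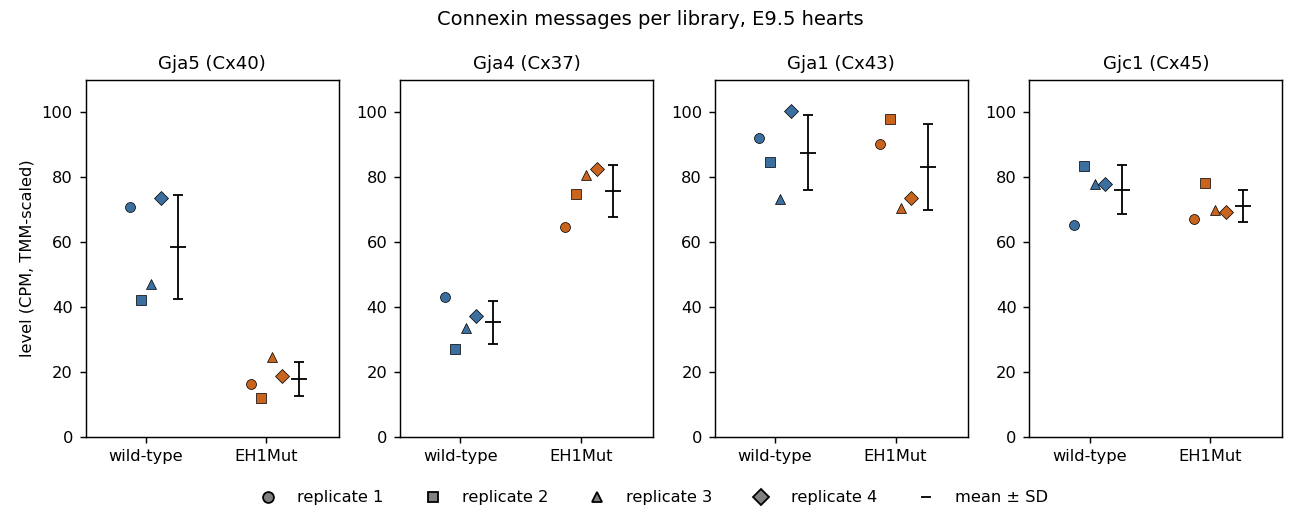
Level of each connexin gene (vertical axis, TMM-scaled CPM, linear from 0) in the 4 WT and 4 Tbx20EH1Mut libraries, with 1 symbol per replicate number and the mean ± SD beside the points. *Gja5* falls from 58.4 to 17.8 CPM and *Gja4* rises from 35.2 to 75.6 CPM with no overlap, while the points of *Gja1* and *Gjc1* overlap.

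The promoters of the called genes are shown because *Gja4* and *Gja5* moved in opposite directions. Each window runs from 250 bases before to 50 after the start site, from RefSeq on GRCm38.p6, and 3 of the 4 genes were matched to one. The motifs searched on both strands were the T-box element GGTGTGA and the shorter core GGTGTG within it, the NKX2-5 element TNAAGTG, the GC box GGGCGG and lastly the TATA box TATAAA. Capitals mark the only matches found.
*Gja5*, chr3:97032152-97032451, plus strand: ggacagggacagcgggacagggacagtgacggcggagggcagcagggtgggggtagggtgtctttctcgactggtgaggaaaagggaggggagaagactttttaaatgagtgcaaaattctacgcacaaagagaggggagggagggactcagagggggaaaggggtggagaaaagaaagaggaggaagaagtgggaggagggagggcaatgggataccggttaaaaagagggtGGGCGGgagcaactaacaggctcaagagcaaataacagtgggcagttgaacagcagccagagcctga
*Gja4*, chr4:127313990-127314289, minus strand: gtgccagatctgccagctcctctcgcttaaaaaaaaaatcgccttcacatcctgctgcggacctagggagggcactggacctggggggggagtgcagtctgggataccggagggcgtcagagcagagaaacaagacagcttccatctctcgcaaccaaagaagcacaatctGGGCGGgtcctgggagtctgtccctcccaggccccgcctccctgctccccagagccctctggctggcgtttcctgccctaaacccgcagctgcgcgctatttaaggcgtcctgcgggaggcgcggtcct

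Both windows held 1 GC box, at -79 to -74 from the start site of *Gja4* and at -17 to -12 from that used for *Gja5*. Another annotated *Gja5* transcript starts at 96904693, outside this window, and its promoter was not searched. GGGCGG was present in 35.7% of 32851 promoter windows of this length. The letters of the T-box element, found in 3.98% of all windows, the shorter core (19.0%), the NKX2-5 element (11.5%) and the TATA box (13.6%) were in neither of them. The *Gja1* window (chr10:56377050-56377349, plus strand) held none of the 5 motifs. A match, or its absence from these windows, is a description of the letters only. The study names *Gja5* among genes lower in mutant hearts that had putative TBX20 binding sites in published ChIP-seq of embryonic hearts. Such sites need not lie in these windows. The *Gja4* window was richer in G and C (62% with 16 CpG) than that of *Gja5* (55.7% with 7 CpG) and that of *Gja1* (47.7% with 8 CpG), beside a median of 52.7% G and C over all windows.

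To compare levels between genes, counts were divided by the exon length in the files and by the scaled library size (RPKM). The lengths were 3105 bases for *Gja1*, 1685 for *Gja4*, 5746 for *Gja5* and 5003 for *Gjc1*. With these lengths the order in WT hearts was *Gja1* at 28.2 ± 3.70 RPKM, *Gja4* at 20.9 ± 4.01, *Gjc1* at 15.2 ± 1.53 and *Gja5* at 10.2 ± 2.80 (mean ± SD, n = 4). *Gjc1* lay above *Gja5* in all 4 WT libraries with ranges that did not overlap. The ranges of *Gja1* and *Gja4* overlapped, as did those of *Gja4* and *Gjc1*. Within WT libraries, *Gja1* was above *Gja4* in all 4 and *Gja4* was above *Gjc1* in 3 of 4. In Tbx20EH1Mut hearts *Gja4* came first at 44.9 ± 4.74 RPKM, ahead of *Gja1* at 26.8 ± 4.23, *Gjc1* at 14.2 ± 0.963 and *Gja5* at 3.09 ± 0.925. There, with the same lengths, the order was the same in all 4 libraries and no neighbouring ranges overlapped. With the longest annotated transcript as the length, chosen after seeing the data, the WT levels were 22.5 for *Gja1*, 22.3 for *Gjc1*, 20.9 for *Gja4* and 15.9 for *Gja5*. *Gja4* remained first in Tbx20EH1Mut hearts at 44.9 and *Gja5* last at 4.85. The longest *Gjc1* transcript, of 3413 bases, retains an intron, and that of *Gja1*, of 3889 bases, is not annotated as coding. Coding transcripts of *Gjc1* have 1890 to 2314 bases, and levels with those lengths were not computed. The place of *Gjc1* in the order, and the shares given below, thus depend on the length used.

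The summed RPKM of the 4 genes was 80.6, 67.2, 67.3 and 82.7 in WT replicates and 83.7, 93.5, 88.7 and 89.7 in Tbx20EH1Mut replicates. The mutant libraries all lay above the WT libraries (p = 0.0286 in an exact two-sided permutation test, the lowest value possible with 4 libraries a genotype). This difference depended on the length used. Without division by length, an alternative added after seeing the data, the genotypes overlapped and the direction turned, with a summed level of 257 ± 27.4 CPM in WT and 248 ± 10.4 CPM in Tbx20EH1Mut hearts (p = 0.571, exact permutation test). With the longest transcript as the length they overlapped too, at 81.6 ± 8.85 and 91.9 ± 4.33 (p = 0.0857, exact permutation test). *Gja4* accounted for 31.7%, 23.8%, 29.6% and 26.6% of this sum in WT and for 45.8%, 47.4%, 53.9% and 54.5% in Tbx20EH1Mut libraries. The share of *Gja5* was 15.3%, 10.9%, 12.2% and 15.5% in WT and 3.35%, 2.19%, 4.80% and 3.64% in Tbx20EH1Mut libraries. The share of *Gja1* moved from 37.9% ± 2.41 to 30.1% ± 4.77 (SD, n = 4), also without overlap. These 3 differences, of 22.5, -9.96 and -7.73 percentage points, each had an adjusted p of 0.0381 in the exact permutation test (adjusted over 4 shares). The share of *Gjc1* overlapped between the genotypes, with 16.2% to 24.8% in WT and 15.4% to 16.7% in Tbx20EH1Mut libraries (adjusted p = 0.0571, exact permutation test). As shares of raw counts, with no division by length, the difference for *Gja1* was -0.45 percentage points with overlap (adjusted p = 0.886, exact permutation test). For *Gja4* and *Gja5* the genotypes did not overlap in such shares, but the adjusted p was 0.0571 (exact permutation test), so neither met the threshold, as with the longest transcript as the length.

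**Figure D2:**
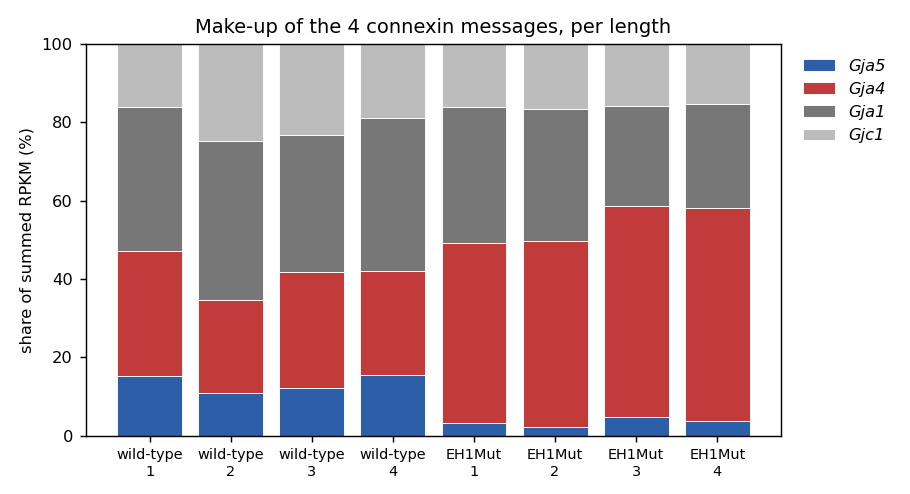
Share of each connexin gene in the summed RPKM of the 4 genes (vertical axis, percent, from 0), 1 bar per library. The *Gja4* segment takes 23.8% to 31.7% of the WT bars and 45.8% to 54.5% of the Tbx20EH1Mut bars, and the *Gja5* segment takes 10.9% to 15.5% and 2.19% to 4.80%.

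Ratios between 2 connexin genes within a library do not depend on how libraries are scaled. The log2 ratio of *Gja5* to *Gja4* counts was 0.72, 0.64, 0.49 and 0.98 in WT replicates and -2.004, -2.67, -1.72 and -2.13 in Tbx20EH1Mut replicates. Counts of *Gja5* thus exceeded those of *Gja4* in all WT libraries and were below them in all mutant libraries. The mean ratio fell by 2.84 on the log2 scale (standard error 0.225), or 7.16-fold. *Gja5* fell 3.12-fold relative to *Gja1* and 3.09-fold relative to *Gjc1*, and *Gja4* rose 2.29-fold relative to *Gja1* and 2.32-fold relative to *Gjc1*. None of these 5 ratios overlapped between the genotypes (exact two-sided permutation test, p = 0.0286 and adjusted p = 0.0343 over 6 ratios for each). The ratio of *Gja1* to *Gjc1* was 0.20 ± 0.276 in WT and 0.21 ± 0.195 in Tbx20EH1Mut libraries on the log2 scale. Their difference of 0.02 (standard error 0.169) had p = 0.886 in the exact permutation test.

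**Figure D3:**
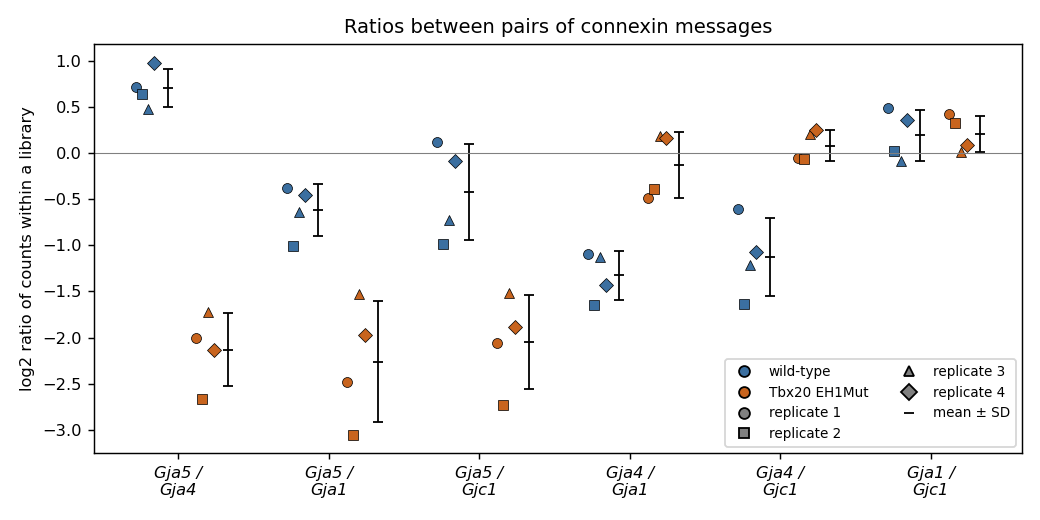
Log2 ratio of counts between pairs of connexin genes within each library (vertical axis), with WT and Tbx20EH1Mut libraries as separate colours, 1 symbol per replicate number and the mean ± SD. The 5 ratios with *Gja5* or *Gja4* do not overlap between the genotypes, and the ratio of *Gja1* to *Gjc1* does.

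Of the other 16 connexin genes in the tables, 5 passed the filter, all at low levels, and 3 of these were called. *Gjd3*, which encodes Cx30.2, a slow-conducting connexin of the mouse atrioventricular node, was at 2.55, 1.98, 2.17 and 1.81 CPM in WT and at 0.80, 0.72, 0.66 and 0.74 CPM in Tbx20EH1Mut libraries. That is a log2 fold change of -1.54 (standard error 0.257, with adjusted p = 0.00262 in edgeR). *Gjd4*, which encodes Cx39 and is known from developing muscle, had 31, 38, 40 and 23 counts in WT and 0, 3, 0 and 0 in Tbx20EH1Mut libraries. Per unit of depth the summed counts were 36.1-fold higher in WT (exact 95% interval 12.1 to 177, counting error only), and *Gjd4* was called lower with an adjusted p of 0.00247 in edgeR. *Gjb5*, an epithelial connexin of skin and placenta, rose by 1.95 on the log2 scale, from 0.785 ± 0.199 to 3.03 ± 0.698 CPM (with adjusted p = 0.00157 in edgeR). *Gja6* was at 0.321 and 0.316 CPM (with adjusted p = 0.970 in edgeR), and 11 connexin genes were too low to be tested.

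Of the tested genes nearest to each of the 4 cardiac connexins on either side, looked up after the counts had been seen, *Eftud2*, a splicing factor gene 18773 bases from *Gjc1*, was the only one called (log2 fold change -0.93, with adjusted p = 0.00435 in edgeR). Part of the *Gja5* exons, 165 bases or 2.87% of their length, is shared with *Gpr89* on the other strand. Since the strand setting of the counting is not given in the sources used here, reads in that stretch cannot be told apart, and *Gpr89* had 4809 counts over the 8 libraries beside 12686 of *Gja5*.

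Pannexins form large membrane channels related in shape to connexin hexamers. *Panx1* was at 21.7 ± 2.18 CPM in WT and 16.4 ± 1.86 CPM in Tbx20EH1Mut hearts (log2 fold change -0.40, with adjusted p = 0.0381 in edgeR). *Panx2* was at 9.75 ± 0.964 and 6.20 ± 0.713 CPM (log2 fold change -0.65, with adjusted p = 0.0124 in edgeR). With 1 library left out at a time, the call of *Panx1* was lost in 6 of 8 fits, and its adjusted p reached 0.111 without Tbx20EH1Mut replicate 4. That of *Panx2* was lost with the foregut covariate (with adjusted p = 0.0788 in edgeR).

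**Figure D4:**
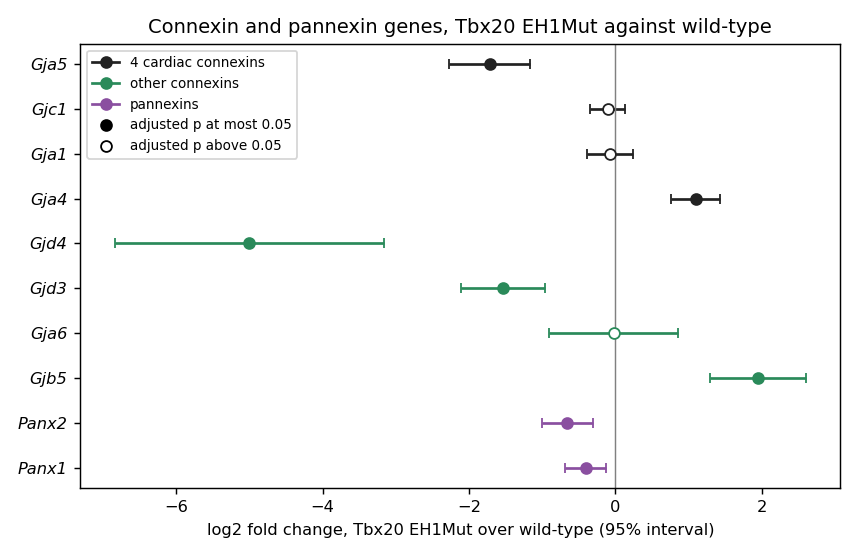
Log2 fold change of the connexin and pannexin genes described in the text, Tbx20EH1Mut over WT (horizontal axis), with 95% intervals from the edgeR fit. Filled points have an adjusted p of at most 0.05, and the fitted value of *Gjd4* rests on 3 counts in the mutant libraries and is no measure of the size of its change.

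Connexins sit in the myocyte border beside the adherens junctions and desmosomes that hold myocytes together, and 13 genes of these structures were listed as partners. Of the 13, 1 was called higher and 2 lower, beside 29.3% called among all genes tested, with a median log2 fold change of -0.14. *Dsc2*, a desmosomal cadherin, fell by 1.19 on the log2 scale, from 34.8 to 39.8 CPM in WT to 14.1 to 17.7 CPM in Tbx20EH1Mut libraries (with adjusted p = 1.49e-04 in edgeR). *Ctnna3*, a heart-enriched alpha-catenin, rose by 0.55 on the log2 scale, from 10.7 ± 1.62 to 15.7 ± 2.05 CPM (with adjusted p = 0.0265 in edgeR). *Vcl*, which encodes vinculin, was called lower (log2 fold change -2.40, with adjusted p = 0.0307 in edgeR), but its WT replicate 1 at 8.56 CPM lay within the mutant range of 4.13 to 23.2 CPM. The calls of *Ctnna3* and *Vcl* were lost in 4 and 6 of those 8 fits, and the adjusted p reached 0.0884 for *Ctnna3* without WT replicate 3 and 0.0883 for *Vcl* without Tbx20EH1Mut replicate 4. The scaffold protein gene *Tjp1*, whose product ZO-1 binds Cx43 and Cx45, had a log2 fold change of -0.34 (with adjusted p = 0.153 in edgeR).

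Of 7 transcription factor genes known to act on cardiac connexin genes, 1 was called higher and 3 lower. *Tbx5*, an activator of *Gja5* in the heart, fell by 0.80 on the log2 scale, from 102 ± 4.60 to 58.6 ± 6.94 CPM (with adjusted p = 9.92e-04 in edgeR). *Irx3*, a regulator of connexin expression in the ventricular conduction system, rose by 1.34, from 32.3 ± 6.11 to 81.6 ± 7.20 CPM (with adjusted p = 3.01e-04 in edgeR). *Shox2*, a factor of the sinus node, was at 27.0, 8.94, 22.4 and 7.35 CPM in WT and at 1.55, 5.20, 6.66 and 2.33 CPM in Tbx20EH1Mut libraries (log2 fold change -2.06, with adjusted p = 0.0180 in edgeR). The *Shox2* call was lost in 2 of the 8 leave-one-out fits and with the foregut markers as a covariate, where the log2 fold change was -0.46 (with adjusted p = 0.596 in edgeR). *Tbx20* itself was at 368 ± 11.1 CPM in WT and 267 ± 44.9 CPM in Tbx20EH1Mut hearts (with adjusted p = 0.0273 in edgeR), a call lost in 4 of the leave-one-out fits, with adjusted p up to 0.0726 without WT replicate 3. *Nkx2-5*, *Tbx2* and *Tbx3* did not pass the test, with log2 fold changes of -0.06, 0.29 and -0.16.

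Because whole hearts hold several cell types, marker genes were counted beside the connexins. The 12 cardiomyocyte markers summed to 36742 to 41119 CPM in WT and 32625 to 46010 CPM in Tbx20EH1Mut libraries, with 1 gene higher (*Myl3*), 2 lower (*Myh6* with the largest fall) and a median log2 fold change of -0.07. With 1 library left out at a time, 1 to 4 of these markers were called, and *Myl3* lost its call in 6 of 8 fits (adjusted p in edgeR up to 0.115 without Tbx20EH1Mut replicate 3). With the foregut covariate 8 of the 12 were called, the same 3 and 5 more. The 10 endothelium markers summed to 825 to 1004 CPM in WT and 1053 to 1143 CPM in Tbx20EH1Mut libraries, with 4 genes called, all higher, and log2 fold changes from *Nfatc1* at -0.42 to *Kdr* at 0.68. With 1 library left out, 3 to 6 of them were called, and *Kdr* lost its call with the foregut covariate (log2 fold change 0.31, with adjusted p = 0.289 in edgeR). Relative to summed cardiomyocyte markers, *Gja5* was 3.20-fold lower and *Gja4* 2.24-fold higher in Tbx20EH1Mut libraries. Relative to summed endothelium markers, *Gja5* was 3.85-fold lower and *Gja4* 1.86-fold higher. The genotypes did not overlap in any of these 4 ratios (exact permutation test, adjusted p = 0.0457 over 8 ratios, the smallest reached in this family). *Gjc1* was 1.25-fold lower relative to endothelium markers, also without overlap (exact permutation test, adjusted p = 0.0457). The level of *Gjc1* itself was not called, while the endothelium sum went from a mean of 934 CPM in WT to 1088 CPM in Tbx20EH1Mut libraries. *Gja1* overlapped in both ratios (exact permutation test, adjusted p = 0.943 against cardiomyocyte and 0.190 against endothelium markers), as did *Gjc1* against cardiomyocyte markers (adjusted p = 0.914 in that permutation test).

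*Gja4* and *Gja5* are both known from arterial endothelium, where 8 other markers were listed, 6 of them called higher and 1 lower with a median log2 fold change of 0.80. *Cxcr4*, a chemokine receptor, rose by 2.21 on the log2 scale and *Sox17*, an arterial transcription factor, by 1.87, while *Nrp1* fell by 0.64 (with adjusted p = 3.87e-05, 4.11e-05 and 0.00956 in edgeR). *Gja4* moved in the direction of most of the arterial list and *Gja5* in the other. Foregut epithelium and erythroid markers also moved with genotype. The 8 foregut epithelium markers summed to 189.6 to 288 CPM in WT and 652 to 871 CPM in Tbx20EH1Mut libraries, with 5 called, all higher, and a median of 2.45 on the log2 scale. Most of that sum came from the keratin genes *Krt8* and *Krt18*, together 213 of 230.0 CPM in WT and 668 of 779 CPM in Tbx20EH1Mut libraries on average. Of the other 6 foregut markers, 5 overlapped between the genotypes, and all 6 had their highest WT level in replicate 2. These 6 summed to 2.97, 54.2, 1.04 and 8.14 CPM in WT replicates and to 185, 152, 29.7 and 77.0 CPM in Tbx20EH1Mut replicates. In WT, *Krt8* stayed between 131 and 155 CPM and *Krt18* between 57.2 and 78.1 CPM. The sum of the list is therefore mostly a keratin level and no measure of foregut tissue. With 1 library left out, 2 to 8 foregut markers were called. The 7 erythroid markers were all lower with a median of -2.08 on the log2 scale, from *Klf1* at -2.43 to *Hba-a1* at -1.74. They summed to 1855 to 4941 CPM in WT and 352 to 1097 CPM in Tbx20EH1Mut libraries. Epicardium markers had 2 of 6 genes called, both higher, while the 4 not called were all below 0. The median log2 fold change of that list was -0.10, from *Upk1b* at -0.59 to *Wt1* at 1.59. Its sums overlapped (58.6 to 177 CPM in WT and 128 to 165 CPM in mutant libraries). Neural crest markers had 2 of 4 tested genes called, both higher. Log2 fold changes there ran from *Sox10* at -0.96 to *Tfap2a* at 2.08, neither of them called. The neural crest list summed to 57.5 to 65.9 and 75.4 to 89.4 CPM, of which *Ets1* alone held 52.5 and 64.9 CPM on average. Leaving out 1 library gave 1 to 2 epicardium calls and 0 to 2 neural crest calls. No list had a gene without counts in all libraries. The part of these tissues in the connexin differences was not tested, and the marker ratios and foregut covariate given above do not measure it.

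**Figure D5:**
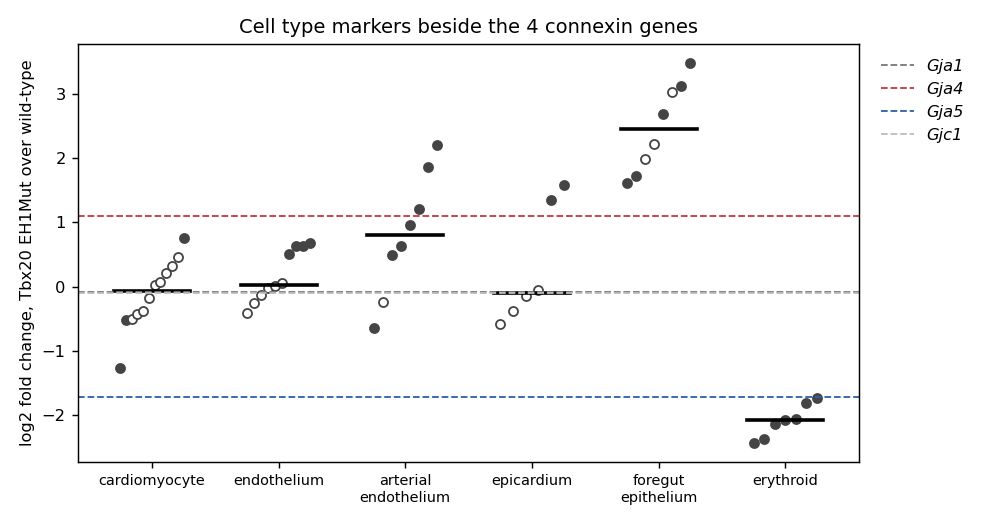
Log2 fold change (vertical axis, Tbx20EH1Mut over WT) of each tested marker gene by cell type, filled where the adjusted p is at most 0.05, with a bar at each list's median and a dashed line for each connexin gene. Foregut markers lie above 0 with a median of 2.45 and erythroid markers below 0 with a median of -2.08, beside *Gja4* at 1.10 and *Gja5* at -1.72.

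The genes whose pattern over the 8 libraries was most like that of each connexin were found among 10500 genes by the root mean square difference of log2 CPM, taken relative to the WT mean. The nearest to *Gja5* were the cyclin gene *Ccnd2* (difference 0.327), *mt-Cytb* (0.335) and *Cited1* (0.339). The nearest to *Gja4* were *Itm2b* (0.0766), the Iroquois factor gene *Irx5* (0.0913) and *R74862* (0.116). *Cdkn1a* (0.0744), *Impa2* (0.102) and *Gas1* (0.107) were nearest to *Gja1*, and *Fbh1* (0.0462), *App* (0.0466) and *Cntrob* (0.0552) to *Gjc1*. The matches to *Gja5* were the least close of the 4 sets, since none reached the distances found for the other connexins.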

How the data were processed

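The authors deposited 1 table per library of raw counts, whole numbers of reads per Ensembl gene with no normalization, with gene positions and summed exon length. Per the study's methods, paired reads of 150 bases came from poly-A selected RNA. The submitters' processing notes name Trimmomatic 0.36, STAR 2.5.2b and the build GRCm38 (mm10), and the counting tool is not given in the sources used here. Symbols were matched by identifier to GENCODE M21 for 48970 of 49315 genes.

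Counts were filtered with filterByExpr, scaled by TMM and fitted with genotype as the only term in edgeR 4.0.16 (R 4.3.3, glmQLFit and glmQLFTest). P-values were adjusted over the 17163 genes tested, and the steps were tested on simulated data. In the simulation of the edgeR fit far fewer genes changed than were called here, balanced in direction. It therefore does not show how the fit behaves with so many changes. Values per library were compared by their means in a permutation test, exact over 70 arrangements and two-sided (smallest p 0.0286). Ratios used the counts as deposited, and RPKM used the exon length in the tables. The SD is over 4 libraries, which differed by more than sampling noise within each genotype. The methods call them biological replicates.

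The 4 genes and all lists were chosen with earlier results of these data known. Named genes were the 4 connexins, other connexin and pannexin genes tested, up to 4 called genes of the junction and transcription factor lists, the extremes of each marker list and 3 nearest genes per connexin (mean CPM of at least 5). Others are named with their values as examples. Some listed genes are not reported here. Alternatives were RLE, upper-quartile and library-size scaling, DESeq2 1.42.0, limma-voom (limma 3.58.1), 2 other filters, a replicate block, a foregut covariate (mean log2 of CPM plus 0.5), other lengths and leaving out each library.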

Additional observations from a re-analysis of the deposited data

Results flagged for a closer look

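Each genotype's 4 libraries were checked for one standing apart from the other 3, in 208 groups over the connexin levels, ratios and shares and the CPM of every listed gene tested. None of the values of *Gja1*, *Gja4*, *Gja5* and *Gjc1* had such a library. In WT the highest library stood apart, replicate 2 each time, for 5 foregut epithelium markers, *Epcam* at 15.3 CPM, *Foxa2* at 2.32 CPM, *Foxa1* at 3.73 CPM, *Shh* at 4.03 CPM and *Cldn6* at 20.8 CPM. The highest WT library also stood apart for *Ryr2* at 302 CPM and *Tbx18* at 61.3 CPM, and the lowest for *Ctnnb1* at 571 CPM and *Dll4* at 10.9 CPM. In Tbx20EH1Mut hearts the highest library stood apart for *Cdh5* at 125 CPM and *Aldh1a2* at 16.2 CPM. Chance alone marks about 1 in 20 groups of continuous values, and the foregut markers share 1 library. *Gjd4* was marked in Tbx20EH1Mut replicate 2 at 0.0797 CPM from 3 counts, which any count there would have given since the other 3 libraries had 0 counts.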

How the results depend on the processing

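Over 9 alternatives with all libraries, *Gja5* ranged from -1.79 to -1.07 on the log2 scale (adjusted p 1.02e-09 to 0.0281, edgeR, DESeq2 or limma) and *Gja4* from 1.04 to 1.56 (1.59e-08 to 0.00598), and both kept their calls. *Gja1* (-0.34 to 0.01) and *Gjc1* (-0.24 to -0.01) gained none. Without 1 library at a time, *Gja5* ranged from -1.91 to -1.56, *Gja4* from 1.005 to 1.21, *Gja1* from -0.17 to 0.003 and *Gjc1* from -0.17 to -0.04, with no change of call. Upper-quartile scaling moved the median of all genes to 0.0891 and the calls to 2859 higher and 1997 lower, against 2406 and 2618. The 5024 calls became 3945 with the replicate block, 3061 without WT replicate 3, 3001 without WT replicate 4 and 3028 without Tbx20EH1Mut replicate 4, and rose to 6586 without WT replicate 1, 6469 with the foregut covariate and 6275 with DESeq2.

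Same-numbered libraries did not deviate together (correlations -0.354, 0.38, 0.077 and 0.075), so the numbers were not taken as pairs. With the replicate block, *Gja5* was -1.72 (adjusted p = 0.00301) and *Gja4* 1.12 (0.00598) in edgeR. The ratios with the replicate block, tested by exact sign flips that allow no p below 0.125, stayed at -2.84 (*Gja5*/*Gja4*), -1.64 (*Gja5*/*Gja1*), -1.63 (*Gja5*/*Gjc1*), 1.197 (*Gja4*/*Gja1*) and 1.21 (*Gja4*/*Gjc1*).

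The summed level of the 4 genes differed by 14.5 RPKM, by -9.71 as summed CPM and by 10.3 with the longest transcript (exact permutation test, p = 0.0286, 0.571 and 0.0857), and by 12.1 to 17.2 RPKM without 1 library.

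As shares of raw counts the differences were -0.45 (*Gja1*, adjusted p = 0.886), 16.9 (*Gja4*, 0.0571) and -15.2 points (*Gja5*, 0.0571, exact permutation test). With the longest transcript they were -4.26, 23.3 and -13.9 points (adjusted p = 0.143, 0.0571 and 0.0571, exact permutation test). Adjusted p rose for *Gja4* and *Gja5* since fewer shares then reached the smallest p. Junction partner calls fell from 3 to 1 without WT replicate 3, WT replicate 4 or Tbx20EH1Mut replicate 4, transcription factor calls from 4 to 2 without WT replicate 3 or with the foregut covariate, and pannexin calls from 2 to 1 under 10 settings. The foregut covariate, applied to the lists after seeing the data, both ended and added calls. Since it largely goes with genotype, these changes cannot be assigned to foregut tissue. It left 2 of 4 called transcription factors, without *Tbx20* and *Shox2*, and ended the calls of *Ctnna3*, *Kdr*, *Efnb2*, *Dll4*, *Aldh1a2*, *Epcam*, *Foxa2* and *Shh*. Calls went from 3 to 8 for cardiomyocyte markers, with *Myl4*, *Myl7*, *Tnni1*, *Tnnt2* and *Ttn* added, and from 3 to 5 for junction partners, *Dsg2* and *Tjp1* among those added. They went from 7 to 6 for arterial, 7 to 5 for erythroid, 5 to 3 for foregut, 2 to 1 for epicardium and 2 to 0 for neural crest markers, and stayed at 4 for endothelium markers with 1 lost and 1 added. Upper-quartile scaling ended the call of *Tbx20*, scaling by library size that of *Ctnna3* and limma-voom that of *Vcl* (0.0671). Connexin genes below 1 CPM are limited by depth.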
